A study of Mus musculus with 8 samples.

Results

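The 10 genes described here encode proteins of milk or of the secretions of the mammary epithelium: Trf, Ltf, Csn3, Lalba, Mfge8, Btn1a1, Spp1, Cp, Wfdc18 and Lcn2. They were taken by symbol, and all 10 were found among the 14883 gene lines of the deposited table. The cells came from the mammary gland of mice aged 5 weeks, an age within puberty, from a strain the labels give only as mixed, with no treatment, transgene or genotype named. Tissue was dissected from glands 4 and 5 as ducts and as terminal end buds, the bulbs at which pubertal ducts elongate, and live cells were sorted into wells. The study set out to find basal and luminal cell types of these structures. The labels name 8 libraries, numbered 1 to 4 on each of 2 plates, with 96 wells each. Whether a library held ducts or end buds, and from which animals, is not labelled. All p-values thus refer to library-to-library spread, estimated in part by pooling over all genes. Part of that spread may be technical.

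The 8 libraries held 101158 to 598625 transcripts. A well was kept as a cell when it held at least 1500 transcripts and 500 genes. That left 46 cells in libraries 1 and 3, with 10 and 13 cells on plate 1 and 11 and 12 on plate 2, and 68 cells in libraries 2 and 4. The text turns on the 46 cells, of which 41 held more luminal markers than markers of other types, and uses the 68 cells, of which 62 are led by basal markers, as contrast. Each value is the number of molecules of a gene per 10000 molecules of the cell or of the summed cells. The method reads 1 end of each molecule, so no value is divided by gene length.

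The luminal layer of the mammary gland holds hormone-sensing cells, which carry the estrogen and progesterone receptors, and cells of the secretory lineage, from which the milk-producing alveolar cells of pregnancy arise. In lactation, prolactin signals through its receptor, the kinase Jak2 and the transcription factor Stat5 to switch on casein and other milk genes. The lineage factor Elf5 and the receptor Kit mark secretory progenitors in the virgin gland. The 10 genes fall into 3 roles. Csn3, Lalba, Btn1a1 and Mfge8 belong to the milk micelle, to lactose synthesis and to the membrane of the milk fat globule. Trf, Ltf, Lcn2 and Cp carry or capture iron or copper, and Ltf and Lcn2 are also antimicrobial. Spp1 and Wfdc18 are other secreted proteins.

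Promoters of the secretory genes are shown for Lalba, a gene of lactose synthesis, and for Wfdc18, whose window holds a TATAAA match where that of Lalba does not. The windows run from 250 bases before to 50 bases after the gene start in RefSeq's table for GRCm38.p6, on the gene's own strand. Capitals mark a TATAAA match. Lalba lies at chr15:98482634-98482933 (minus strand) and Wfdc18 at chr11:83708754-83709053 (plus strand).
Lalba: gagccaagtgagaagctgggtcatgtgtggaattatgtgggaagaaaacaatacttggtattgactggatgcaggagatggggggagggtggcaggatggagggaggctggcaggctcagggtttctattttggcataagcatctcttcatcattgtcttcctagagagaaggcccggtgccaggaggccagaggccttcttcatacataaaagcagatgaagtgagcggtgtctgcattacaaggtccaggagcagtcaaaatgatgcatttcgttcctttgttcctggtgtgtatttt
Wfdc18: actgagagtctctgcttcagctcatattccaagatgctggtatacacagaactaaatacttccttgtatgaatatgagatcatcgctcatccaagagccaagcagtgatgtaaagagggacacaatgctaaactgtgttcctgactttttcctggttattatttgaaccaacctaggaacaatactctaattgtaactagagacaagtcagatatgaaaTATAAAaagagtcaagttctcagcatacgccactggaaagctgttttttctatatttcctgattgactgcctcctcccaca
TATAAA, searched on both strands, was found in 13.6% of 32851 promoter windows of this length. Among the members, 7 genes with 9 windows were in the table, and 3 windows held it, those of Wfdc18 (31 bases before the start), Cp (25 bases before, in 1 of its 2 windows) and Spp1 (211 bases before, in 1 of its 2 windows). The half-site pair TTCNNNGAA, the core that Stat5 is known to bind, reads the same on both strands and was found in 8.3% of all windows. It was in 0 of the 9 member windows, which says only that these letters are not in these 300 bases. Trf, Csn3 and Btn1a1 had no entry.

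Cells were first divided by the receptors Prlr, Esr1 and Pgr, which are none of the 10 genes. Cells with at least 3 transcripts of the 3 receptors together were to count as hormone-sensing and the others as secretory. This gave 20 cells under 3 receptor transcripts and 26 cells with 3 or more. The data went against these names in part. Of the 26 cells, 11 held under 10 receptor transcripts per 10000 (0.873 to 6.76) and stood at 206.6 to 912.7 per 10000 for the sum of the 10 genes. In 11 of these 11 cells the secretory progenitor markers outnumbered the hormone-sensing markers, with medians of 54 and 7 transcripts. The other 15 cells held 12.4 to 66.9 receptor transcripts per 10000 and had a median of 2.51 per 10000 for the 10 genes. The 11 cells had a median depth of 14116 transcripts, against 4996.5 in the cells under 3 receptor transcripts. Conversely, 5 of the 20 cells under 3 receptor transcripts held more markers of other cell types than luminal markers. Summed over these 5 cells, macrophage or dendritic markers stood at 113.5, lymphocyte markers at 27.6, basal markers at 12.7 and red blood cell markers at 226.1 per 10000. Red blood cell and lymphocyte markers were each found in 2 of the 5 cells, macrophage or dendritic markers in 4 and basal markers in 5. The cell of plate 2 library 1 held only 9 transcripts of other types against 5 luminal ones, so its type is uncertain. The classes are therefore called by their rule, and 16 cells with 2 to 4 receptor transcripts lie next to the threshold.

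**Figure D1:**
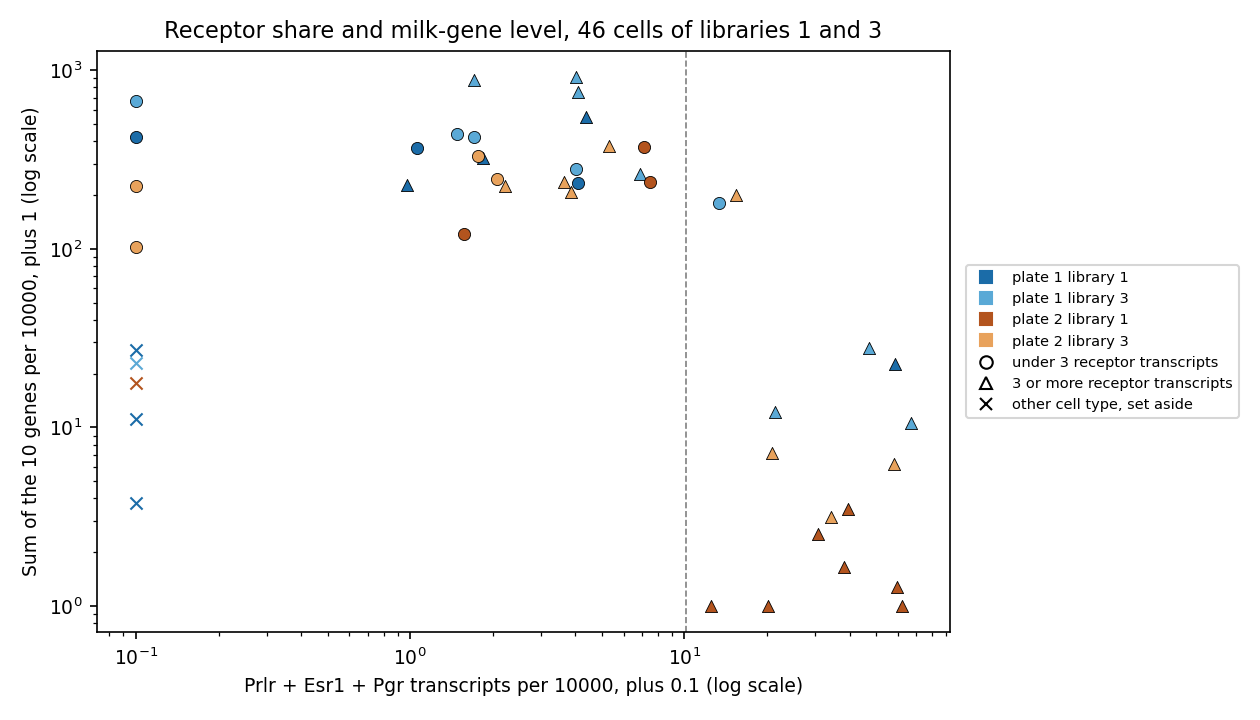
Each point is 1 of the 46 kept cells of libraries 1 and 3, with the receptor transcripts per 10000 (plus 0.1) on the x axis and the sum of the 10 genes per 10000 (plus 1) on the y axis, both logarithmic; colours are libraries, shapes are the classes and the dashed line is 10 receptor transcripts per 10000. Cells left of the line lie above 100 except for the 5 crosses (cells set aside), and 14 of the 16 cells right of it lie under 30, whatever their class by the count of 3.

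A second division was added after these values were seen. It calls a cell receptor-rich at 10 or more receptor transcripts per 10000 and receptor-poor below that. It sets aside the 5 cells with more markers of other types than luminal markers. It gave 25 receptor-poor cells (6 and 8 in libraries 1 and 3 of plate 1, 3 and 8 in those of plate 2) and 16 receptor-rich cells (1, 4, 7 and 4). The median depth was 7523 transcripts in receptor-poor and 13747 in receptor-rich cells. Receptor-poor cells had 40.9 secretory progenitor markers and 5.13 hormone-sensing markers per 10000, and receptor-rich cells 1.96 and 105.5. Of the receptor-rich cells, 2 shallow ones of 1505 and 1967 transcripts passed on 2 and 3 receptor transcripts and held 179.4 and 198.3 per 10000 of the 10 genes. The 14 others held 0 to 26.9 per 10000. Neither division read the 10 genes, but the second was chosen with their values in view, so its results are no independent evidence for the direction.

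In the division by 3 receptor transcripts, the 10 genes made up 247 ± 74.6 transcripts per 10000 (SD, n = 4 libraries) in cells under 3 and 155 ± 121 in cells with 3 or more. Library values were 221.0, 349.8, 173.2 and 242.8 per 10000 under 3, in the order plate 1 library 1, plate 1 library 3, plate 2 library 1 and plate 2 library 3. With 3 or more they were 270.4, 229.4, 0.822 and 121.3 per 10000. The classes overlapped, and plate 2 library 1, where the upper class held 7 receptor-rich cells only, stood apart.

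The test between these classes called none of the 10 genes. The fit (edgeR quasi-likelihood, library as block, 4 libraries, adjusted p under 0.05 over all genes) tested 998 genes and called 2, or 0.2%, which were Cd164 and the class gene Prlr. All 10 members were tested, 10 of 10 had a log2 difference above 0, and their median was 1.608, against a median of -0.0557 over all genes. Lalba had the smallest adjusted p among members, with a log2 difference of 2.31 ± 0.66 (SE, edgeR adjusted p = 0.265), higher in 4 of 4 libraries. Wfdc18 differed by 2.89 ± 1.79 and Trf by 1.60 ± 1.20, with edgeR adjusted p of 0.514 and 0.594. Ltf and Spp1 were near 0, at 0.06 ± 1.56 and 0.12 ± 1.57. At an unadjusted p under 0.05, 136 genes passed, and DESeq2 called 1 member, Lalba. With a threshold of 5 receptor transcripts 6 members passed, and with a threshold of 2 Spp1 alone passed, in the opposite direction (-3.04 on the log2 scale).

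By receptor share, every member was higher in receptor-poor than in receptor-rich cells in each of the 4 libraries. The share of all genes that did so is not given here, so this is a description. The sum of the 10 genes was 345 ± 197 per 10000 (SD, n = 4) against 11.3 ± 8.74. It stood at 304.7, 633.0, 203.6 and 238.5 per 10000 in receptor-poor cells and at 21.8, 13.5, 0.822 and 9.21 in receptor-rich cells. In the 3 libraries with at least 3 cells of each class, the edgeR fit tested 1879 genes and called 230, or 12.2%, of which 129, or 6.87%, were higher in receptor-poor cells. Of the 9 members that passed the filter on low counts, 9 were called higher. Members pass that filter through the class where they are high, so this count is given as a description. The adjusted p-values by receptor share printed below for single genes come from this fit. They are descriptions too, and no independent evidence for the direction. With 2 residual degrees of freedom the p-values rest on the spread pooled over all genes, and 1 sum, of plate 2 library 1, came from 3 cells with 12378 transcripts. Thinned to 1500 transcripts per cell, the fit called 2 of 5 members tested, Csn3 at 3.52 and Lcn2 at 3.10 on the log2 scale. Trf, Spp1 and Mfge8 then stood at 3.54, 2.20 and 2.31, with edgeR adjusted p of 0.0703, 0.0703 and 0.128.

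**Figure D2:**
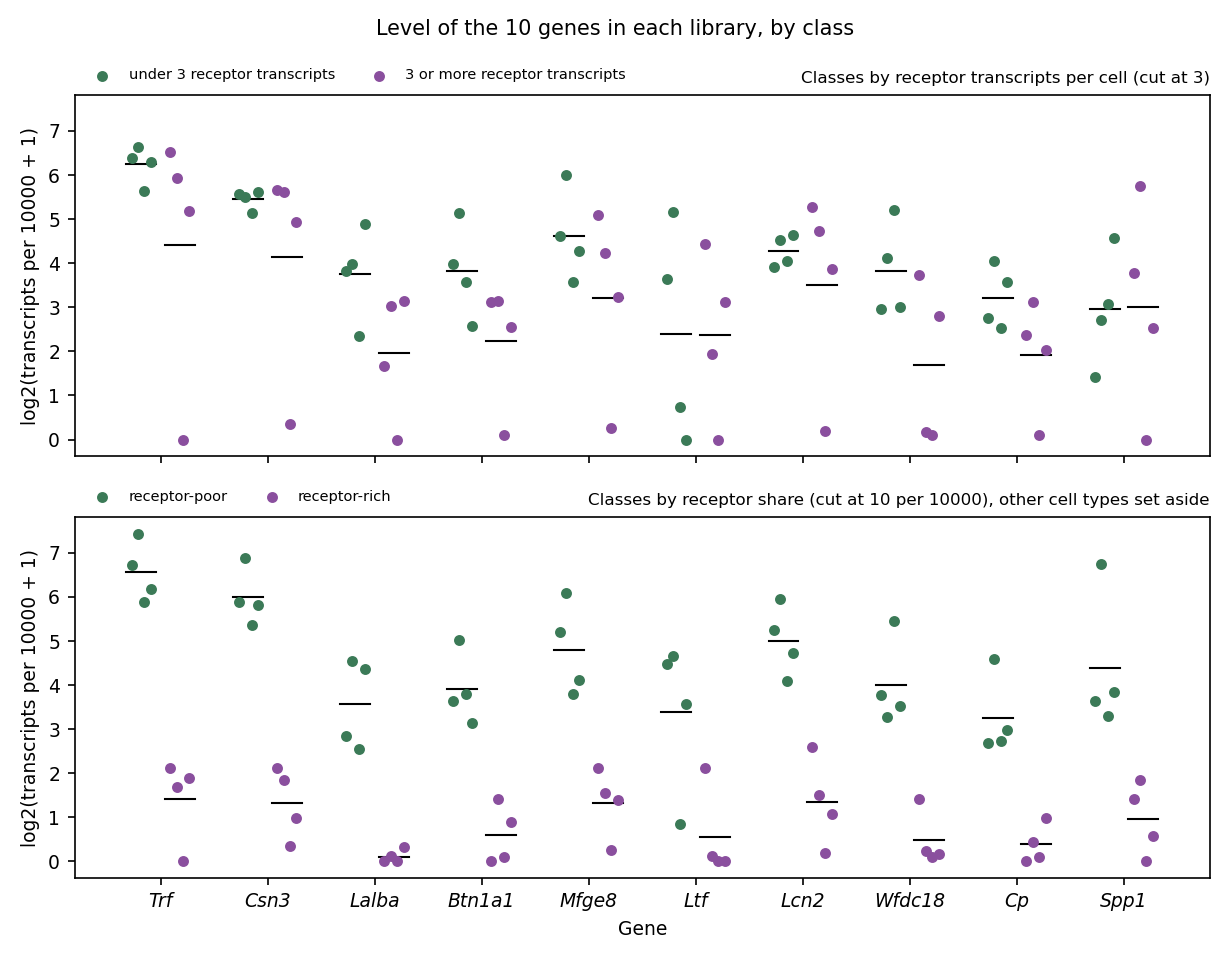
Points are the level of each gene in each library as log2(transcripts per 10000 + 1), summed over the cells of a class, and bars are means over libraries. In the upper panel the classes by 3 receptor transcripts overlap for most genes. In the lower panel the receptor-poor libraries lie above the receptor-rich libraries for 9 of the 10 genes. The share of all genes separated in this way is not given here, so the count is a description. The lowest receptor-poor value of Ltf, 0.808 per 10000, lies below the receptor-rich value of 3.35.

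Among the milk and lactose genes, Csn3 (kappa-casein, which coats the casein micelle; chr5:87925579-87932665, plus strand, mm10) was the highest in receptor-poor cells. It stood at 57.8, 116.7, 40.4 and 55.8 per 10000 in receptor-poor cells, in the library order above, and at 3.35, 2.57, 0.274 and 0.996 in receptor-rich cells. The classes did not overlap, and the log2 difference over 3 libraries was 6.14 ± 0.42 (SE, edgeR adjusted p = 1.39e-44). Csn3 was found in 24 of 25 receptor-poor cells and in 22 of them after thinning every cell to 1500 transcripts, against 10 and 3 of 16 receptor-rich cells.

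Lalba (alpha-lactalbumin, the subunit that turns a galactosyltransferase into lactose synthase; chr15:98480400-98482721, minus strand) was less abundant and found in fewer cells. It stood at 6.22, 22.4, 4.85 and 19.5 per 10000 in receptor-poor cells. In receptor-rich cells it was 0, 0.0919, 0 and 0.249 per 10000, which is 3 transcripts in all. Its log2 difference was 7.25 ± 0.72 (edgeR adjusted p = 5.42e-21). It was found in 19 of 25 receptor-poor cells, with 0 transcripts in 6 of them, among these 1 cell of 45824 transcripts that held 394 of Trf. In receptor-rich cells 3 of 16 held it. Thinned, 13 of 25 receptor-poor cells and 0 of 16 receptor-rich cells did, and the exact upper limit of the latter share is 20.6%.

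Btn1a1 (butyrophilin, needed to bud the milk fat globule; chr13:23456992-23465901, minus strand) stood at 11.5, 31.8, 12.9 and 7.76 per 10000 in receptor-poor and at 0, 1.65, 0.0685 and 0.871 in receptor-rich cells, a log2 difference of 4.61 ± 0.56 (edgeR adjusted p = 2.19e-14). Mfge8 (lactadherin, a fat globule protein that binds phosphatidylserine; chr7:79133768-79149060, minus strand) stood at 36.1, 67.2, 12.9 and 16.3 against 3.35, 1.93, 0.206 and 1.62 per 10000. Its log2 difference was 4.78 ± 0.48 (edgeR adjusted p = 5.42e-21). Mfge8 and Trf were the members found in 25 of 25 receptor-poor cells. Mfge8 also appears on the usual marker list of secretory progenitors and was left out of that list here.

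Of the metal-binding genes, Trf (transferrin, the iron carrier; chr9:103204001-103230444, minus strand) was the most abundant member, with 29.9% of all member transcripts in receptor-poor cells. It stood at 105.1, 171.9, 58.2 and 71.9 per 10000 in receptor-poor cells and at 3.35, 2.20, 0 and 2.74 in receptor-rich cells. The log2 difference was 6.45 ± 0.40 (edgeR adjusted p = 1.18e-53). Single receptor-poor cells ranged from 12.2 to 273.2 per 10000 with a median of 109.0, so no receptor-poor cell lacked it.

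Lcn2 (lipocalin 2, which captures bacterial iron carriers; chr2:32384633-32388252, minus strand) stood at 37.0, 60.6, 16.2 and 25.6 against 5.03, 1.84, 0.137 and 1.12 per 10000, with a log2 difference of 5.35 ± 0.48 (edgeR adjusted p = 4.7e-26). Cp (ceruloplasmin, a copper-bearing ferroxidase; chr3:19957054-20009145, plus strand) stood at 5.44, 23.3, 5.66 and 6.96 against 0, 0.368, 0.0685 and 0.996 per 10000. Its log2 difference was 4.79 ± 0.65 (edgeR adjusted p = 1.38e-11). After thinning, Lcn2 was found in 24 and Cp in 18 of 25 receptor-poor cells.

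Ltf (lactoferrin, the iron-binding antimicrobial protein of milk; chr9:111019271-111042767, plus strand) was unevenly spread. It stood at 21.3, 24.2, 0.808 and 10.9 per 10000 in receptor-poor cells and at 3.35, 0.0919, 0 and 0 in receptor-rich cells. Only 3 cells held 63.6% of its 494 transcripts, with 116, 106 and 92 each, and 8 of 25 receptor-poor cells held 0. Without its richest cell, plate 2 library 3 fell from 10.9 to 0.612 per 10000. Ltf did not pass the filter on low counts of the fit by receptor share, in which 302 transcripts in receptor-poor cells stood against 1 in receptor-rich cells.

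Of the other secreted proteins, Spp1 (osteopontin, a secreted phosphoprotein; chr5:104435118-104441050, plus strand) stood at 11.5, 106.3, 8.89 and 13.3 per 10000 in receptor-poor and at 1.68, 2.57, 0 and 0.498 in receptor-rich cells, a log2 difference of 5.72 ± 0.49 (edgeR adjusted p = 2.61e-28). A cell of plate 1 library 3 held 509 of its 1050 transcripts, and without that cell the library stood at 50.1 per 10000. The deposited value of 509.4 in this cell comes from 221 of 256 possible molecule tags, a 2.3-fold correction, so it is less precise than lower values. The same limit holds for the highest values of Trf (393.7 from 201 tags, 1.96-fold) and Csn3 (375.7 from 197 tags, 1.91-fold).

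Wfdc18 (a small secreted protein with a whey acidic protein domain; chr11:83709015-83711348, plus strand), whose promoter window above holds TATAAA 31 bases before the start, stood at 12.8, 8.66, 42.8 and 10.4 per 10000 in receptor-poor and at 1.68, 0.184, 0.0685 and 0.124 in receptor-rich cells. The log2 difference was 7.13 ± 0.70 (edgeR adjusted p = 1.37e-21). It was found in 15 of 25 receptor-poor cells. All 53 of its transcripts in receptor-poor cells of plate 2 library 1 came from 1 of 3 cells, which held 120.4 per 10000 of the 10 genes together.

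**Figure D3:**
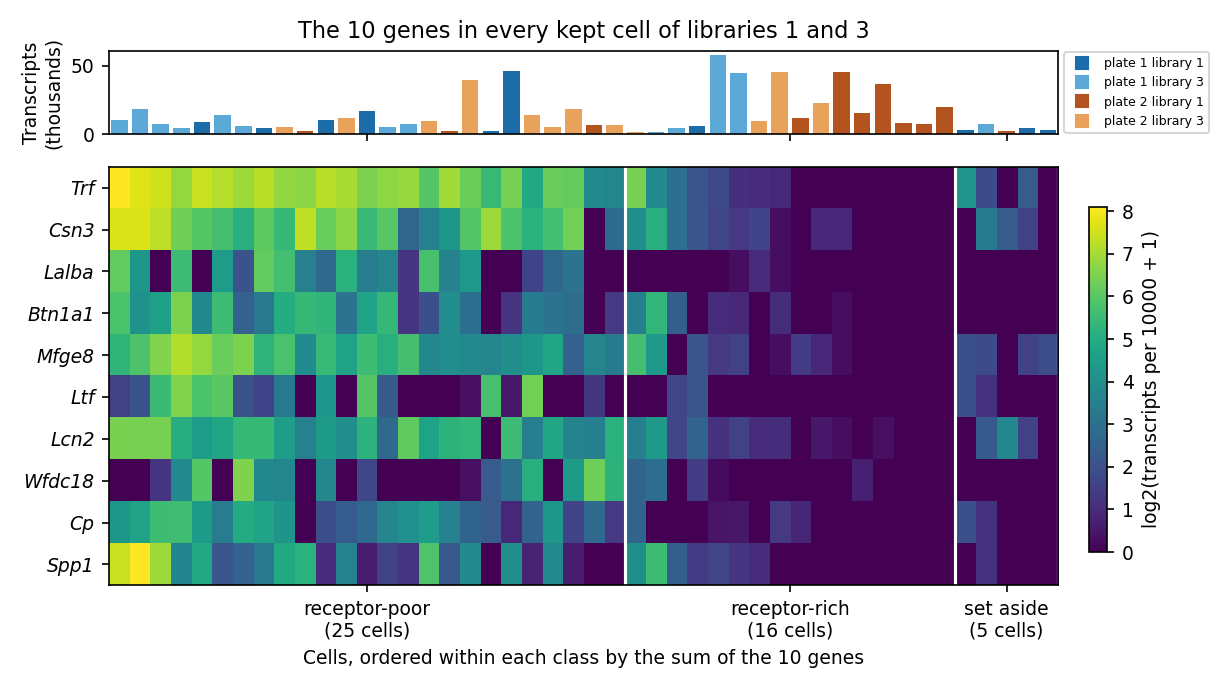
Columns are the 46 kept cells of libraries 1 and 3, ordered within class by the sum of the 10 genes; rows are the genes, coloured by log2(transcripts per 10000 + 1), and the bars above give each cell's depth, coloured by library. Trf and Mfge8 are present in 25 of 25 receptor-poor cells, while Ltf, Wfdc18, Lalba and Spp1 are high in some cells and 0 in others; the 2 receptor-rich cells with the highest levels are the shallowest.

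Shares of cells need a background, since free RNA can reach a well. In libraries 1 and 3, 294 wells held under 500 transcripts, 40085 in all, and carried 109.5 per 10000 of the 10 genes (exact interval 99.5 to 120.3, counting error only). These wells held up to 481 transcripts, with luminal markers at 74.1 per 10000. Free RNA and poorly captured cells cannot be told apart in them. The 44 other wells not kept in these libraries carried 36.2 per 10000 of the 10 genes. Receptor-rich cells carried 7.21 per 10000 and receptor-poor cells 358.8, each over summed cells. The level in the wells under 500 transcripts differed by library, with 182.3, 148.3, 18.5 and 88.8 per 10000. In receptor-rich cells it was lowest in the same library, plate 2 library 1, at 0.822. The part of free RNA in the low levels of receptor-rich cells was not tested.

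Other genes of milk and secretion were taken as fixed lists, many of whose genes were too low to test. By 3 receptor transcripts, 0 genes passed in any list. By receptor share, 10 of 20 tested milk-lineage and progenitor regulators were higher in receptor-poor cells and 0 lower. Kit, a receptor of progenitors, differed by 6.70 ± 0.80 on the log2 scale, Id2, an inhibitor of differentiation factors, by 5.27 ± 0.80, Elf5, the lineage factor, by 5.18 ± 0.78, and Sox10, a progenitor factor, by 4.11 ± 0.67. Gata3, a luminal factor, and Runx1 did not pass, at -1.05 ± 0.45 and 0.66 ± 0.55. Progenitor marker genes also serve to check the classes, so these values are partly a check of the cells.

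Few of the lists for milk synthesis could be tested. Of 15 other milk proteins, 1 was tested, Wfdc2, which was lower in receptor-poor cells with a log2 difference of -5.80 ± 0.85 (edgeR adjusted p = 7.14e-10). Csn1s1, an alpha-casein, had 23 transcripts in receptor-poor cells, all in 1 cell, and Wap, whey acidic protein, had 1. Others too low to test had more transcripts in receptor-poor than in receptor-rich cells, Folr1 with 30 and 6, Muc1 with 21 and 2, Muc15 with 12 and 0 and Cel with 8 and 0. Of the genes for milk fat 3 of 28 were tested and 0 passed, with Me1 at 0.95 ± 0.58 and Acly, which makes acetyl-CoA for fat, at 0.34 ± 0.72. No gene of the lactose list was tested. In the secretory pathway 0 of 22 tested genes passed, with the chaperones Hspa5 at -0.67 ± 0.45 and Hsp90b1 at -0.42 ± 0.50.

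Antimicrobial and metal genes were divided. Of 5 tested antimicrobial genes, 2 were higher in receptor-poor cells. They were Lrg1, at 4.07 ± 0.74 on the log2 scale, and Lbp, the lipopolysaccharide-binding protein, with 52 transcripts against 0. Nfkbia and Nfkbiz, feedback inhibitors of NF-kappa-B signalling, did not pass, at 0.78 ± 0.51 and 0.45 ± 0.68. Of 7 tested iron and copper genes, Scara5, a ferritin receptor, was higher by 5.83 ± 1.10. The metallothioneins Mt1 and Mt2, which bind metal inside the cell, were lower, with log2 differences of -2.44 ± 0.62 and -4.50 ± 0.65. Ferritin did not pass, with Fth1 at 1.13 ± 0.45 and Ftl1 at 0.12 ± 0.49.

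Markers of other cell types were low in receptor-poor cells. The same lists served to set cells aside, so these low levels follow in part from how the class was defined. Macrophage or dendritic markers stood at 0.451 per 10000, lymphocyte markers at 0.104, fibroblast markers at 0.381, endothelial markers at 0.139, pericyte markers at 1.59, adipocyte markers at 0.0347 and red blood cell markers at 0.347. Basal markers stood at 2.29 per 10000, against 211.5 in the cells of libraries 2 and 4. The neutrophil list, with Ltf and Lcn2 left out, stood at 9.29 per 10000 in receptor-poor and 5.37 in receptor-rich cells, with 5 of its 11 genes in the table. Of its 268 transcripts in receptor-poor cells 246 were Cxcr2, and the granule genes S100a9 and Elane were at 0. The nerve or Schwann list stood at 6.10 and 0.880 per 10000. Sox10, which is also a progenitor regulator, made up 5.27 of these 6.10, and the glial gene S100b was at 0.

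Members varied together only in part. Among the 20 cells under 3 receptor transcripts, each thinned to 1500 transcripts, 15 pairs of members found in at least 10 of these cells had a median Spearman rho of 0.443, with 15 of 15 above 0. These cells include the 5 set aside above, in which members are low. Among the 25 receptor-poor cells the 45 pairs had a median of 0.172, from -0.332 to 0.535, with 35 above 0. The median was 0.259 when thinned with another random seed and 0.323 per 10000 without thinning. The cells share libraries and depth, and the share of pairs above 0 among other genes is not given here. The rho values and the counts of pairs above 0 are thus descriptions. Within libraries the median over pairs in receptor-poor cells was 0.179 in plate 1 library 1 (6 cells), 0.220 in plate 1 library 3 (8 cells) and -0.008 in plate 2 library 3 (8 cells).

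In receptor-poor cells Trf stood at 0.535 with Mfge8, 0.509 with Btn1a1, 0.456 with Spp1 and 0.443 with Csn3. The order of the pairs changed with another random seed, where Trf stood at 0.597 with Spp1 and 0.577 with Mfge8, and within plate 1 library 3 Trf stood at -0.024 with Mfge8. Mfge8 and Btn1a1, the fat globule genes, stood at 0.525. Ltf, found in 12 of the 25 thinned cells, went with Mfge8 (0.487) and Btn1a1 (0.468) and against Lcn2 (-0.298) and Lalba (-0.237). These 4 values were 0.393, 0.297, -0.294 and -0.11 with another random seed. Wfdc18 was below 0 with 7 of the 9 other members, lowest with Spp1 (-0.332), Csn3 (-0.326) and Lalba (-0.324). This did not hold within each library. In plate 1 library 1 Wfdc18 was above 0 with 7 of the 9, among them Trf (0.812), Mfge8 (0.806) and Spp1 (0.585), in plate 1 library 3 with 4 of the 9 and in plate 2 library 3 with 1 of the 9. Per 10000 and without thinning, Wfdc18 had a rho of 0.688 with the luminal marker list, where the 9 other members ranged from -0.425 to 0.243.

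**Figure D4:**
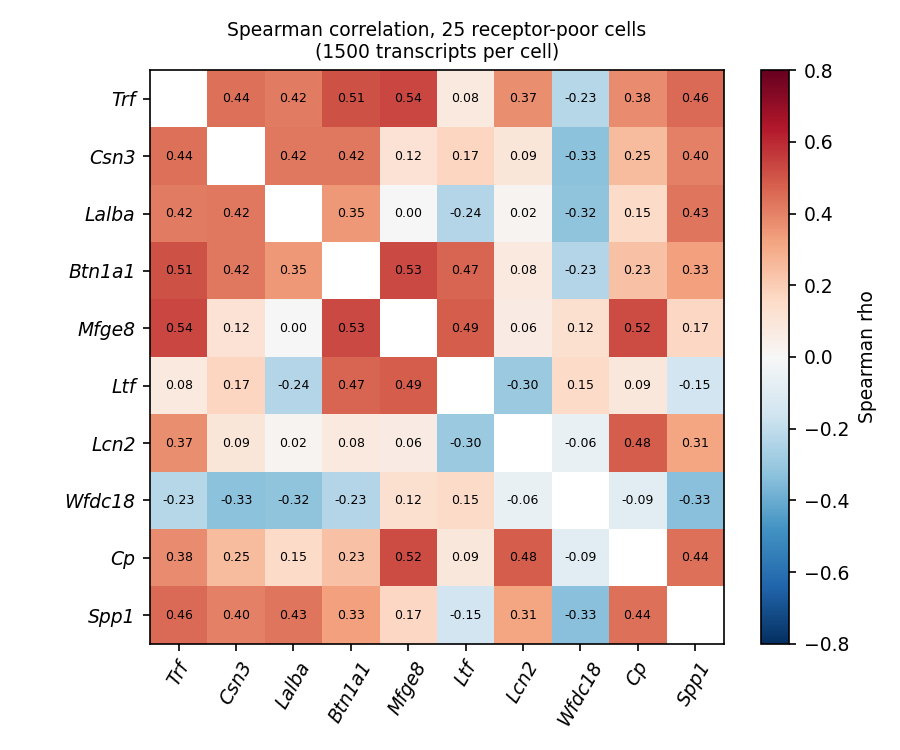
Cells of the matrix give Spearman's rho between 2 members across the 25 receptor-poor cells, each thinned to 1500 transcripts; red is above 0 and blue below. Trf, Csn3, Lalba, Btn1a1 and Spp1, picked from this matrix, form a block between 0.329 and 0.509. The block did not hold within each library. In plate 1 library 1, plate 1 library 3 and plate 2 library 3, Csn3 with Spp1 stood at -0.152, 0.812 and -0.255. Trf with Spp1 stood there at 0.213, 0.817 and 0.507. Csn3 with Lalba fell from 0.424 to 0.191 with another random seed. The Wfdc18 row is below 0 for 7 of 9 genes.

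Genes outside the 10 that ran most alike with their mean log2 level were ranked by Spearman's rho. Over the 46 cells and 6311 genes found in at least 10 of them, Igfbp5, which binds insulin-like growth factors, led with 0.894, followed by Cst3, a secreted protease inhibitor (0.820), Ogfrl1 (0.813), Fcgbp (0.803), Clic6 (0.781), Inhbb, an activin subunit (0.765), Spns2 (0.764), Itm2b (0.759), Tgfb3 (0.752) and Nfib (0.745). The median gene had a rho of -0.112. This ranking spans both classes and the 5 cells set aside. Within the 20 cells under 3 receptor transcripts, Igfbp5 (0.864), Tgfb3 (0.829), Fcgbp (0.807) and Inhbb (0.803) led among 985 genes, followed by Atp11a, 5830416P10Rik, Ahnak, Sulf2, Kitl and Cat at 0.745 to 0.801. Within the 25 receptor-poor cells Fcgbp led with 0.733 among 2791 genes, Tgfb3 stood at 0.655 and Igfbp5 was not among the leading 10. Each ranking picks the highest values among many genes over few cells, with no test. The leading genes are thus descriptions, and high values can arise by this choice alone.

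Between plates no member passed the test. In cells under 3 receptor transcripts, 2 libraries on each plate, the edgeR fit tested 511 genes and called 0, or 0.0%. At an unadjusted p under 0.05 36 genes passed. Ltf came nearest, with 11.5 and 35.0 per 10000 in the libraries of plate 1 and 0.677 and 0 in those of plate 2. Its log2 difference, plate 2 minus plate 1, was -6.67 ± 1.07 (edgeR adjusted p = 0.0516), and DESeq2 called it as the only gene (adjusted p = 0.00275). It rests on 172 transcripts against 1, and the adjusted p ranged from 1.03e-13 to 1.0 over all settings tried. In receptor-poor cells Ltf stood at 21.3 and 24.2 on plate 1 and at 0.808 and 10.9 on plate 2, a log2 difference of -1.73, and was not called. The 9 other members differed between -1.87 (Btn1a1) and 1.90 (Spp1), and 0 passed.

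In libraries 2 and 4 the members were low but not uniformly so. Summed over the 68 kept cells, the 10 genes made up 15.0 per 10000, and Ltf and Spp1 had 0 of 1130586 transcripts, where 3 transcripts of that total, taken as the limit of a count of 0, would be 0.0265 per 10000. Btn1a1 had 1 transcript, Lalba 3, Wfdc18 23, Trf 31 and Cp 54. Csn3, Mfge8 and Lcn2 made up 584, 541 and 459 transcripts, and per library they stood at 5.32, 1.06, 2.86 and 10.2 for Csn3 and 1.70, 2.70, 4.79 and 6.17 for Mfge8 (plate 1 libraries 2 and 4, then plate 2). Lcn2 stood at 2.38, 4.25, 4.48 and 3.72 per 10000.

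These 3 genes were spread in different ways over the 62 cells led by basal markers. Csn3 was found in 36 cells, but 5 cells held 80.1% of its transcripts, and the highest cell held 228 transcripts, 50.2 per 10000. Mfge8 was found in 53 cells with 35.8% in its 5 highest, and Lcn2 in 50 cells with 24.8%. Against the sum of 6 contractile genes (Acta2, Myh11, Mylk, Tagln, Cnn1 and Actg2), Csn3 had a Spearman rho of -0.368 and Mfge8 one of 0.547. Thinned to 1500 transcripts, these were -0.422 and 0.291. Within plate 2 library 2 (31 cells) and library 4 (18 cells) these were -0.670 and -0.491 for Csn3 and 0.469 and 0.309 for Mfge8. Lcn2 had rho values of 0.161 over all cells and 0.029 and 0.026 within these libraries. The highest Csn3 cell stood at 29.5 contractile transcripts per 10000, where the highest contractile cell stood at 329.8. Wells under 500 transcripts in libraries 2 and 4 carried 5.56 per 10000 of Csn3, 3.71 of Mfge8 and 3.48 of Lcn2. These sums rest on 24, 16 and 15 transcripts and lie near the levels summed over kept cells. By library the levels differed. In the library order above, Csn3 stood at 2.27, 0, 12.2 and 8.90 in these wells, against 5.32, 1.06, 2.86 and 10.2 in kept cells. Mfge8 stood there at 3.40, 0, 3.67 and 7.41 and Lcn2 at 2.27, 2.37, 4.89 and 4.45. The part of free RNA in the levels of kept cells was not tested.

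**Figure D5:**
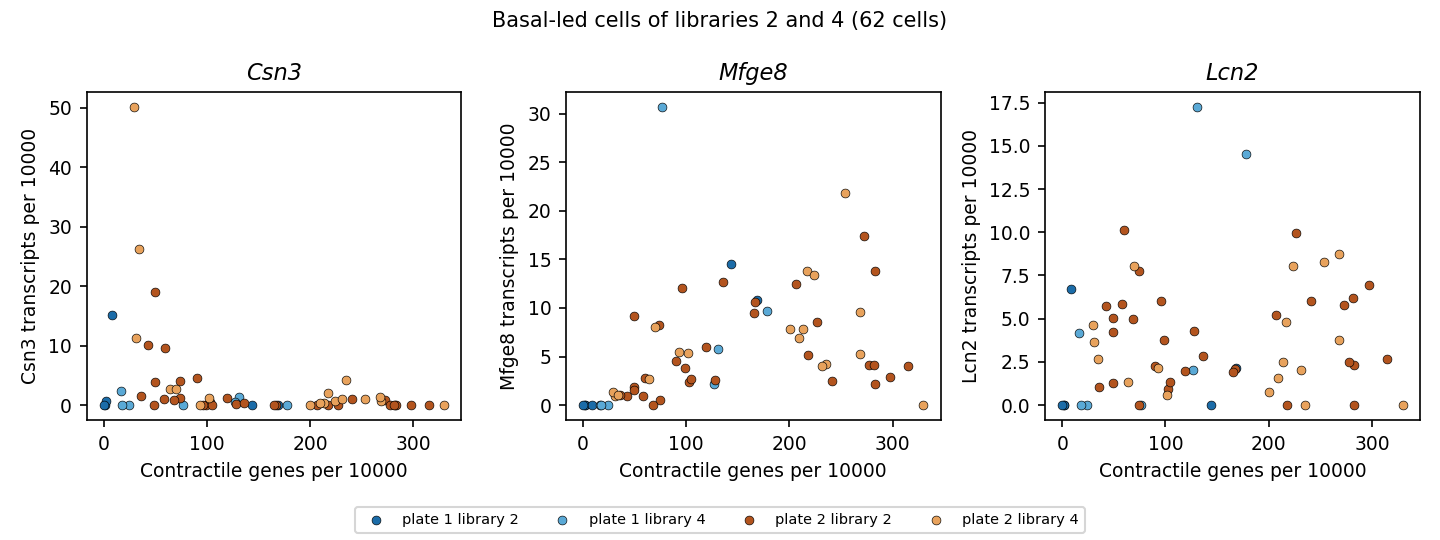
Each point is 1 of 62 cells of libraries 2 and 4 led by basal markers, with the sum of 6 contractile genes per 10000 on the x axis and Csn3, Mfge8 or Lcn2 per 10000 on the y axis, coloured by library. The highest Csn3 cells, up to 50.2 per 10000, lie at the low contractile end, and Mfge8 is low there.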

How the data were processed

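Libraries were made by SORT-seq, which automates CEL-seq2, per the labels' protocols. The deposited values are expected counts, that is estimated counts of molecules per gene and well, corrected for molecules sharing 1 of 256 tags. The correction was inferred from the numbers themselves, of which 5 in 533078 nonzero ones lay off that scale at a tolerance of 1e-06. The submitters' processing notes name BWA 0.6.2-r126 and build mm10, with no role. Further steps: not given in the sources used here.

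Counts were rounded, and 81 spike-in lines were left out. Classes, filters, thinning to 1500 transcripts (seed 1) and depths are given with the results. Sums per library and class with at least 3 cells were tested with edgeR 4.0.16 in R 4.3.3 (quasi-likelihood test, TMM scaling, filterByExpr, and a Benjamini-Hochberg adjusted p under 0.05 over all genes), with library as block between classes and no block between plates. DESeq2 1.42.0 was an alternative. On simulated data with 100 genes changed 4-fold and 100 changed 8-fold, the fit between the classes by 3 receptor transcripts recovered 76% and 100%. It tested 1171 genes, with 8 false calls. The simulation gave each gene the same spread beyond counting error and did not mix cell types within a class. These rates thus do not measure the power for the members. Intervals are exact (Clopper-Pearson, 95%) and cover counting error only. Correlations are Spearman's, across cells, with no p. No doublet caller was run. Well numbers kept in 2 libraries at a time numbered 0 to 7, and the wells hold different cells.

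The members, the gene lists and the rules were chosen with earlier results of these data known. Named genes are the 10 members, up to 4 passing and 2 other genes of each list, and the 10 genes most alike in rank. A few others were named after their values were seen (Cd164, Csn1s1, Wap, Folr1, Muc1, Muc15 and Cel). Gene positions are from GENCODE M21, promoters from RefSeq (7 of 10 members matched). Alternatives changed the receptor threshold, the cell filter, normalization, filter, block and cells, and left out each library. The division by receptor share was added after the data were seen.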

Additional observations from a re-analysis of the deposited data

Results flagged for a closer look

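In 48 sets of 4 library values tested for a value far from the other 3, 6 stood out, where chance gives about 1 in 20. In receptor-poor cells, Spp1 at 106.3 and Cp at 23.26 per 10000 stood out in plate 1 library 3, where the 3 other libraries reached 13.3 and 6.96. Without the cell richest in Spp1, that library stood at 50.1 for Spp1, and without the cell richest in Cp at 22.8 for Cp. Wfdc18 stood out at 42.82 per 10000 in receptor-poor cells of plate 2 library 1, from 1 of 3 cells. In receptor-rich cells, Ltf at 3.351 and Wfdc18 at 1.676 per 10000 stood out in plate 1 library 1, whose class is 1 cell with 2 and 1 transcripts of these genes. In libraries 2 and 4, Btn1a1 at 0.01704 per 10000 in plate 2 library 2 is 1 transcript against 0 in the 3 other libraries.

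For 3 members the difference between the classes by 3 receptor transcripts had opposite signs on the plates, lower in the class under 3 in the 2 libraries of plate 1 and higher in the 2 libraries of plate 2. On the log2(level + 1) scale, the mean difference of plate 2 minus that of plate 1 was 2.84 for Csn3, 5.25 for Spp1 and 3.08 for Lcn2. The difference between plates was not tested, and receptor-poor cells by share were 3 of 4, 4 of 7, 0 of 7 and 4 of 8 cells of the upper class, in the library order of the report.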

How the results depend on the processing

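The division by 3 receptor transcripts depended on where the line was drawn. The 2 genes called became 19 with DESeq2, 101 with no filter on low counts, 0 with no replicate block, 4 at a threshold of 2 receptor transcripts, 108 at 5, 7 at 3 per 10000, 224 at 10 per 10000 and 12 with classes called after thinning. They became 0 with cells thinned, 4 with wells from 500 transcripts, 0 with wells from 3000, 4 with other cell types set aside, and 1 to 8 with 1 library left out. Members called went from 0 to 1 with DESeq2, 5 with no filter, 1 at a threshold of 2, 6 at 5, 9 at 10 per 10000 and 1 with classes called after thinning. A minimum of 5 cells per class could not be fitted.

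Reversed log2 differences between classes were -0.27 for Ltf and -0.22 for Spp1 with no filter and -0.86 for Spp1 with no replicate block. At a threshold of 2 they were -0.0142 for Trf, -0.24 for Csn3, -3.04 for Spp1 and -0.70 for Lcn2. Lcn2 was -0.13 thinned, Spp1 -0.0185 with wells from 500, and Ltf, Spp1 and Lcn2 -0.41, -1.40 and -0.21 with wells from 3000. With a library left out, Ltf ranged from -1.77 (without plate 1 library 3) to 1.70 and was -0.10 without plate 2 library 1. Spp1 ranged from -1.29 (without plate 2 library 1; -1.21 without plate 2 library 3) to 1.79, and Lcn2 from -0.25 (without plate 2 library 1) to 1.61.

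By receptor share, the count of 230 genes became 9 of 134 tested with cells thinned and 109 at 20 per 10000, and 139 to 266 with 1 library left out (139 without plate 1 library 3, 143 without plate 2 library 3). Members called were 2 of 5 tested with cells thinned and 9 or 10 in the 10 other settings.

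Between plates, genes called went from 0 to 1 with DESeq2, 14 with no filter and 0 to 20 with a library left out. Members called went to 1, 1 and 0 to 3. With library number as replicate block, 10 genes and 3 members (Ltf, Mfge8, Btn1a1) were called and Lalba was -0.20. The correlation of deviations between library 1 of plate 1 and library 1 of plate 2 was 0.0661 over 1017 genes. Whether libraries of the same number share an origin was not tested. Lalba was also -0.15 with other cell types set aside and -0.19 in receptor-poor cells, where Spp1 was -2.48. With a library left out, Csn3 ranged from -0.56 to 0.00945 and Wfdc18 from -0.83 to 1.56 (0.00945 and -0.83 without plate 2 library 1), Lalba from -1.94 (without plate 2 library 3) to 0.96, Cp from -1.38 to 0.50 and Lcn2 from -0.41 to 0.50 (0.50 without plate 1 library 3, and Lcn2 0.29 without plate 2 library 1).

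The 10 genes together moved from 247 per 10000 to 323 at a threshold of 5 and 345 by receptor share under the threshold, and from 155 to 11.3 by receptor share over it. The median rho of 0.443 was 0.642 unthinned, 0.493 with another seed and 0.172 in receptor-poor cells. Causes were not tested. With 3 to 8 cells per sum, and 1 to 3 transcripts of a gene in receptor-rich cells, fold sizes are imprecise.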
